A study of Homo sapiens with 6 samples.

Results

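The MYC, MAX and MXD network was followed in DLD-1, an established human colorectal cancer cell line, in which AHR was knocked down with siRNA. AHR encodes the aryl hydrocarbon receptor, a transcription factor activated by small ligands. The genes, 9 in all, were chosen by symbol as the core of the network: MYC, MYCL, MAX, MXD1, MXD3, MXD4, MXI1, MNT and MGA. The count tables list 60483 genes, of which 14900 passed the filter on low counts and were tested, and all 9 network genes were among them. There were 3 libraries of control siRNA and 3 of AHR siRNA, from cells of the same line grown in medium with fetal bovine serum. The labels give no other treatment, no time after transfection, and no siRNA sequence. It is 1 cell line, and the control cells also received an siRNA, so both groups share the transfection.

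MYC, MYCL and the MXD proteins are basic helix-loop-helix zipper factors that bind DNA as dimers, for which MAX is their main partner. MYC:MAX dimers recruit coactivators and raise the transcription of growth, ribosome and nucleotide synthesis genes, while MXD:MAX and MNT:MAX dimers bind the same E-box sequences and recruit the SIN3 corepressor with histone deacetylases. MYC is the factor through which Wnt signalling drives growth of intestinal crypt cells, and several MXD genes are switched on as cells leave the cell cycle and differentiate.

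Of the 9 network genes, 6 rose after AHR siRNA and 3 did not pass the test; 0 were called lower by edgeR, by the DESeq2 Wald test or by limma-voom, and 0 at an unadjusted edgeR p under 0.05. MYC itself rose to 126% of its control level. Of the 5 antagonists, MXD4 rose to 373%, MXD1 to 190%, MXI1 to 160% and MNT to 125%. MYCL rose to 326%. MAX, the common partner, differed by a log2 fold change of 0.03 with a 95% interval of -0.12 to 0.17. MXD3, at 83.2% of its control level, and MGA did not pass the test either. A gene is called here at an adjusted p under 0.05 in the quasi-likelihood test of edgeR, adjusted over the 14900 genes. In the same comparison 60.1% of all tested genes were called, 30.0% higher and 30.1% lower, and the groups did not overlap in 63.7% of all tested genes, so a call on its own sets no network gene apart. In 5 of the 9 network genes the groups did not overlap.

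**Figure D1:**
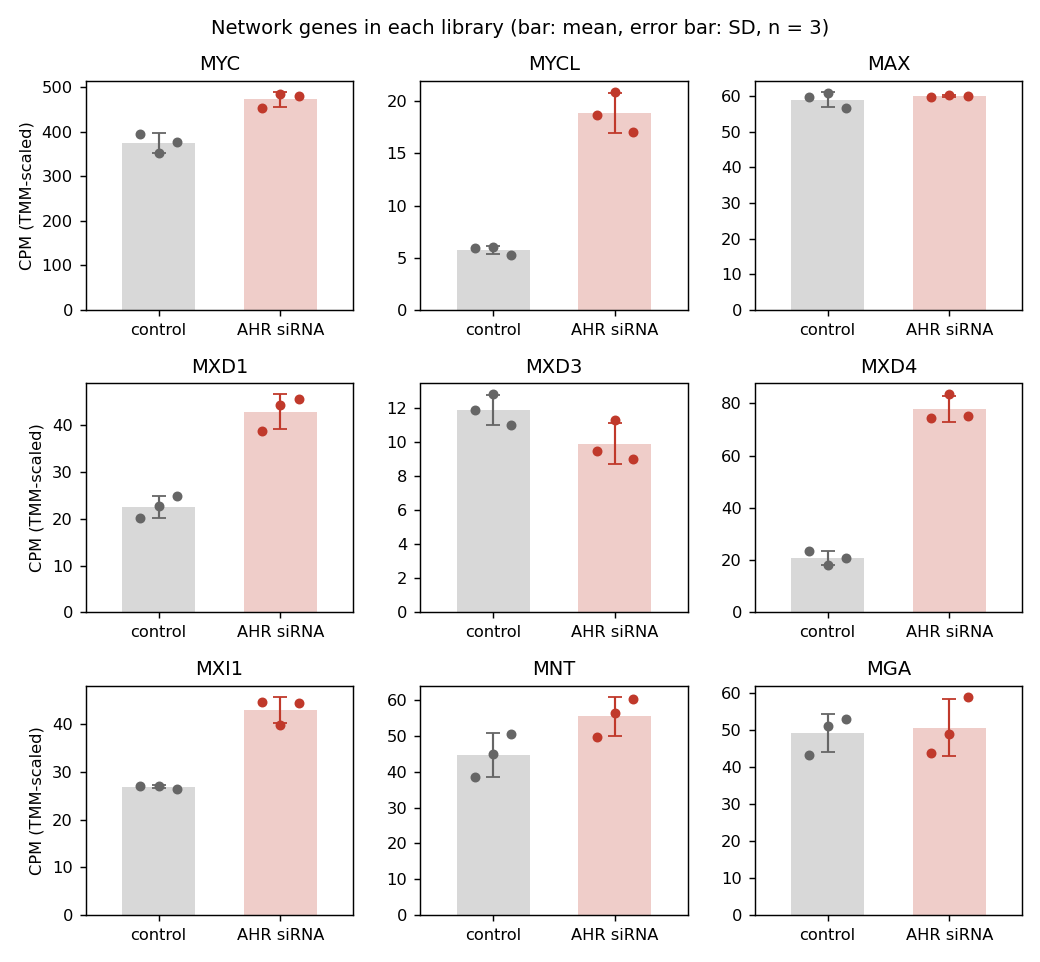
CPM, scaled by TMM, of the 9 network genes (vertical axis, linear from 0) in the 6 libraries: points are libraries, bars are group means with the SD, grey for control siRNA and red for AHR siRNA. MYC, MYCL, MXD1, MXD4 and MXI1 lie higher in every AHR siRNA library than in any control library, and the groups of MAX, MXD3, MNT and MGA overlap.

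Library totals ranged from 11567736 to 15037145 counts, and the AHR siRNA group had the 3 smallest. Leaving out any single library ended none of the 6 calls. AHR, the targeted gene (ENSG00000106546.11, chromosome 7), had 117, 144 and 132 CPM in the control libraries and 95.8, 87.4 and 94.95 CPM in the AHR siRNA libraries, so the groups did not overlap. The knockdown left 70.8% of the AHR transcript (log2 fold change -0.50, SE 0.08, edgeR adjusted p = 1.98e-05). Exons of other genes overlap 2643 of its exon bases in GENCODE 29, most of them those of a protein-coding gene on the same strand, so its counts could hold or lack reads shared with that gene. Epithelial markers summed to 11630 to 13150 CPM in control and to 8032 to 8354 CPM in AHR siRNA libraries. Of the 9 tested markers 5 were lower and 1 higher, or 55.6% and 11.1% against 30.1% and 30.0% of all tested genes. VIL1, the marker that rose, was picked after its values were seen. Its log2 fold change was 2.01 to 2.32 across the alternative settings. The 5 lower markers, named beside it, were KRT8 (-0.75 to -0.56), KRT18 (-0.75 to -0.54), CDH1 (-0.54 to -0.34), EPCAM (-0.31 to -0.11) and CDX2 (-0.27 to -0.08). EPCAM and CDX2 were not called with upper-quartile factors or library totals alone. The part of the epithelial markers in the results below was not tested. Fibroblast markers summed to at most 3.38 CPM in any library and 3 of these 8 had no count in any library. Leukocyte and endothelial markers summed to at most 5.85 and 7.05 CPM. Whether the replicates are separate cultures is not stated in the labels, so the p-values reflect a spread between libraries that may be technical. In bulk RNA a change in the share of cells and a change in RNA per cell cannot be told apart.

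MYC encodes the growth-promoting activator of the network (ENSG00000136997.13, chromosome 8). It had 395, 352 and 376 CPM in the control libraries and 453, 483 and 480 CPM in the AHR siRNA libraries. Every AHR siRNA library was higher than every control library. Its mean was 374 ± 22 CPM against 472 ± 17 CPM (SD, n = 3 in both), or 0.34 higher on the log2 scale (SE 0.07, edgeR adjusted p = 0.000271). The 95% interval runs from 0.19 to 0.48, and 29.2% of all tested genes had a higher log2 fold change.

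MYCL encodes L-Myc, a relative of MYC that also pairs with MAX and is known from small-cell lung cancer (ENSG00000116990.10, chr1:39895426-39902256, minus strand in GENCODE 29 on GRCh38, as for the genes below). It was the least abundant network gene in the control libraries, with 79, 88 and 69 counts in the control libraries and 225, 284 and 232 after AHR siRNA. These correspond to 5.93, 6.07 and 5.31 CPM and to 18.6, 20.9 and 17.0 CPM. The 3 AHR siRNA libraries lie far above the controls, with no overlap. MYCL rose from 5.77 ± 0.41 to 18.9 ± 1.9 CPM (log2 fold change 1.70, SE 0.13, edgeR adjusted p = 1.27e-09), and 1.74% of tested genes had a higher fold change. An antisense transcript overlaps 226 bases of its exons, and the labels do not state whether the counting used strand.

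MAX encodes the common dimerisation partner of the network (ENSG00000125952.17, chr14:65006174-65102695, minus strand). It had 59.7, 60.7 and 56.6 CPM in the control libraries and 59.8, 60.3 and 60.1 CPM after AHR siRNA. The groups overlapped and the means were 59.0 ± 2.1 and 60.1 ± 0.3 CPM. The log2 fold change was 0.03 (SE 0.07, edgeR adjusted p = 0.770), and the interval allows 92.0% to 113% of the control level. MAX passed the test only where libraries were scaled by their totals alone (log2 fold change 0.17, edgeR adjusted p = 0.0374), a scaling that moves the median gene by 0.15 on the log2 scale.

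MXD4 encodes an MXD protein that competes with MYC for MAX and represses E-box genes (ENSG00000123933.13, chr4:2247432-2262294, minus strand). It changed most among the network genes. The control libraries had 23.5, 18.3 and 20.8 CPM and the AHR siRNA libraries 74.5, 83.5 and 75.1 CPM. All 3 AHR siRNA libraries were over the highest control library, with the groups well apart. The mean rose from 20.8 ± 2.6 to 77.7 ± 5.0 CPM (log2 fold change 1.90, SE 0.09, edgeR adjusted p = 4.37e-12). Its interval runs from 1.71 to 2.09, and 1.19% of all tested genes had a higher fold change.

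MXD1, the founding member of the antagonists (ENSG00000059728.9, chr2:69897688-69942945, plus strand), had 20.1, 22.6 and 24.8 CPM in the control libraries. After AHR siRNA it had 38.7, 44.3 and 45.5 CPM, all above the controls. Its mean was 22.5 ± 2.4 CPM against 42.8 ± 3.6 CPM, 0.93 higher on the log2 scale (SE 0.09, edgeR adjusted p = 8.60e-08). Its exons share 237 bases with SNRNP27 on the same strand, so part of the reads could belong to either gene.

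MXI1, also known as MXD2 (ENSG00000119950.19, chr10:110207605-110287365, plus strand), had 27.1, 27.1 and 26.5 CPM in control and 44.7, 39.9 and 44.4 CPM in AHR siRNA libraries. The groups did not overlap, and the mean rose from 26.9 ± 0.4 to 43.0 ± 2.7 CPM. The log2 fold change was 0.68 (SE 0.08, edgeR adjusted p = 7.76e-07).

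MNT encodes the broadly expressed antagonist that is present in dividing as well as resting cells (ENSG00000070444.13, chr17:2384060-2401118, minus strand). It had 38.4, 44.9 and 50.6 CPM in the control libraries and 49.7, 56.5 and 60.4 CPM in the AHR siRNA libraries, so AHR siRNA replicate 1 lay below the highest control. The mean rose from 44.6 ± 6.1 to 55.5 ± 5.4 CPM (log2 fold change 0.32, SE 0.10, edgeR adjusted p = 0.00771), although the groups overlapped. An antisense RNA overlaps 1065 bases of its exons. Without control siRNA replicate 1 the log2 fold change was 0.21 (edgeR adjusted p = 0.0235).

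MXD3 is known for its expression in dividing cells, unlike the other MXD genes (ENSG00000213347.9, chr5:177301461-177312757, minus strand). It had 11.9, 12.8 and 10.999 CPM in the control libraries and 9.44, 11.3 and 8.96 CPM in the AHR siRNA libraries. The groups overlapped through AHR siRNA replicate 2. The log2 fold change was -0.26 (SE 0.13, edgeR adjusted p = 0.0792), and without AHR siRNA replicate 2 it was -0.37 (edgeR adjusted p = 0.0373), which is a call. Exons of RAB24 and PRELID1 together overlap 2084 of its exon bases, so its counts could hold reads of those genes.

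MGA, a MAX partner that also carries a T-box and anchors a Polycomb-type complex (ENSG00000174197.15, chr15:41621224-41773081, plus strand), had 43.3, 51.1 and 53.1 CPM in control and 43.8, 49.0 and 59.0 CPM in AHR siRNA libraries. The groups overlapped almost entirely, and replicate 1 was the lowest in both. The log2 fold change was 0.04 (SE 0.10, edgeR adjusted p = 0.725) with an interval of -0.17 to 0.25. Its sign changed where control siRNA replicate 1 or AHR siRNA replicate 3 was left out (-0.05 and -0.08), and that of MAX where control siRNA replicate 3 was (-0.01).

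**Figure D2:**
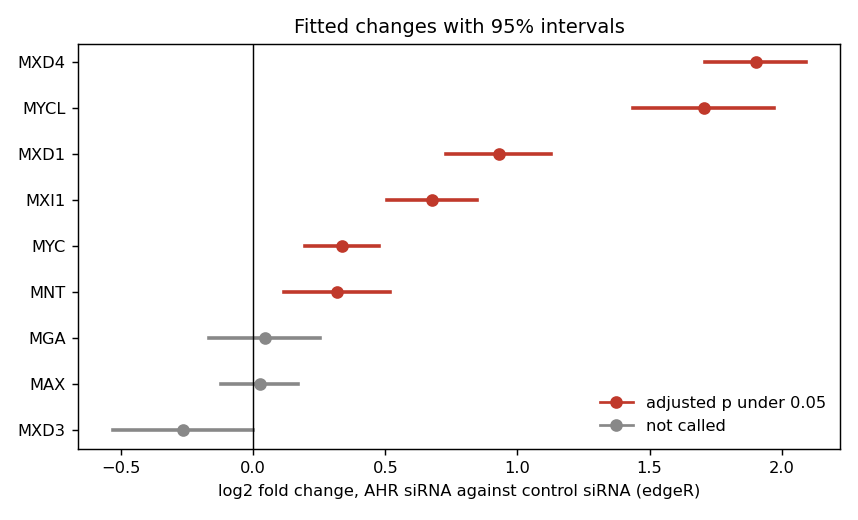
Log2 fold change of the 9 network genes, AHR siRNA against control siRNA, with 95% intervals of the edgeR fit; red genes passed an adjusted p of 0.05 and grey genes did not. MXD4 at 1.90 and MYCL at 1.70 lie farthest to the right, and the intervals of MAX, MXD3 and MGA include 0.

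Promoter sequences are shown for the 4 antagonists that rose, to set what their start sites hold beside their shared direction. The RefSeq promoter table (GRCh38.p14, 250 bases before to 50 after each start) held 13 promoters of 8 network genes, with no entry for MYC. MXD4 is at chr4:2262060-2262359 on the minus strand, MXD1 at chr2:69914859-69915158 on the plus strand, the MXI1 promoter shown, the middle of its 3, at chr10:110209981-110210280 on the plus strand, and MNT at chr17:2401011-2401310 on the minus strand. Capitals mark an E-box (CACGTG) in MXD4 and MNT, and in MXI1 first a word bound by FOXO factors (GTAAACA, here on the other strand) and then the core of the AHR element (GCGTG). No capitals occur in MXD1.
MXD4: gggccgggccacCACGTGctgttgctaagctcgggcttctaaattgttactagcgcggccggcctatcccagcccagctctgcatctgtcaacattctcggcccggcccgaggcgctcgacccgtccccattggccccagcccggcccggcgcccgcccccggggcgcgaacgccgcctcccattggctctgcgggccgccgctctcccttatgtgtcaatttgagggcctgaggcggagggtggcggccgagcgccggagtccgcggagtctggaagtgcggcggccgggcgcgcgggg
MXD1: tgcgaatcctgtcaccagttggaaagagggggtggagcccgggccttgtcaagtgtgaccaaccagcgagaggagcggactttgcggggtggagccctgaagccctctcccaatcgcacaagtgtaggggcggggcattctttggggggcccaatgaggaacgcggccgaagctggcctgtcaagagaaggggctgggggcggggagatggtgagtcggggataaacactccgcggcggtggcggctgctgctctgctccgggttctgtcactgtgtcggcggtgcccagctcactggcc
MXI1: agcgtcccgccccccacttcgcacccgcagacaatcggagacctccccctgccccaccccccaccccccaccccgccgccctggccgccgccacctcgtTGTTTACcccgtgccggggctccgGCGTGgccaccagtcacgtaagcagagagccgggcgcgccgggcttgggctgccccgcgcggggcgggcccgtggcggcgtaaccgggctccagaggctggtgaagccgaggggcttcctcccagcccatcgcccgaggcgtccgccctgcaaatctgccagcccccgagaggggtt
MNT: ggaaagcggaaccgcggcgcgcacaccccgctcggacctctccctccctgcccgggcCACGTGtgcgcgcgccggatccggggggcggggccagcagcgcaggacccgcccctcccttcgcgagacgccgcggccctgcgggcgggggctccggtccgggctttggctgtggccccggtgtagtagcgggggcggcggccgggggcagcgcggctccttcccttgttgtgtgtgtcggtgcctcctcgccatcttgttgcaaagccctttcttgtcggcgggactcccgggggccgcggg

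All 3 motifs were searched on both strands, and no match of one overlapped a match of another in these promoters. CACGTG, the E-box that MYC:MAX and MXD:MAX dimers bind, was found at bases 13 to 18 of the MXD4 promoter and 58 to 63 of the MNT promoter, and in no other network promoter. It occurs in 7.26% of 35116 RefSeq promoters. GCGTG, the core that the dimer of AHR and ARNT binds, occurred in 7 of the 13 promoters, 1 of MYCL, 1 of MXD3, 3 of MGA and 2 of MXI1, against 36.5% of all promoters. Neither MXD4 nor MXD1 nor MNT held it. GTAAACA occurred in the same 2 MXI1 promoters and in 3.42% of all promoters. These are matches of letters, not binding sites, and no binding data were used here.

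Levels per kilobase of exon allow members to be ranked within a group, using the GENCODE 29 exons as an approximation since the annotation behind the counts is uncertain. In the control libraries MYC stood at 125 ± 7 CPM per kb and MAX at 13.3 ± 0.5. MXI1 (5.84), MNT (5.11), MXD1 (3.55), MXD4 (2.95), MGA (2.78), MXD3 (2.30) and MYCL (1.14) followed. Of these neighbours MXI1 and MNT, MXD1 and MXD4, MXD4 and MGA, and MGA and MXD3 did not differ beyond their ranges. After AHR siRNA MXD4 ranked next after MAX, at 11.01 ± 0.71 CPM per kb, with MAX at 13.6 ± 0.1 and MXI1 at 9.34 ± 0.59. MYC remained the highest at 157 ± 6 CPM per kb.

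The summed antagonists MXD1, MXD3, MXD4, MXI1 and MNT stood at 19.1, 19.7 and 20.5 CPM per kb in the control libraries and 33.9, 36.1 and 36.1 after AHR siRNA. All AHR siRNA sums were above all control sums, with means of 19.8 ± 0.7 and 35.4 ± 1.3. MXD4 contributed 51.6% of the net increase, MXI1 22.4%, MXD1 20.5%, MNT 7.99% and MXD3 -2.47%. The share of MXD4 in the sum went from 15% to 31.1%, while that of MXD3 went from 11.7% to 5.42%. MYC over the summed antagonists was 6.91, 5.96 and 6.10 in the control libraries and 4.46, 4.46 and 4.43 after AHR siRNA. The ratio was thus lower in all 3 AHR siRNA libraries, although MYC itself was higher. This is a description of the same levels and carries no test. MYC over MXD4 went from 42.5 ± 2.8 to 14.3 ± 0.7, and MYC over MAX from 9.37 ± 0.71 to 11.6 ± 0.4. On the log2 scale, MYC minus the mean of the 5 antagonists went from 4.01 ± 0.10 to 3.64 ± 0.02, a difference of -0.37.

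**Figure D3:**
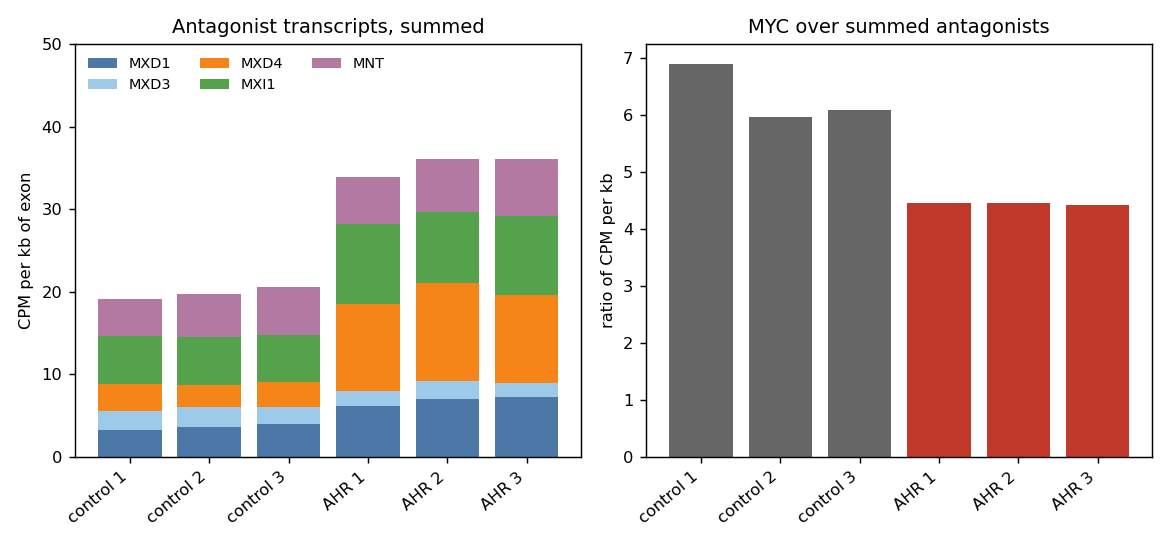
Left, the 5 antagonists stacked in CPM per kb of exon for each library; right, MYC over their sum in each library, grey for control siRNA and red for AHR siRNA. The sum lies between 33.9 and 36.1 in the AHR siRNA libraries and at most at 20.5 in the controls, and the ratio between 4.43 and 4.46 against 5.96 to 6.91.

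Among genes of at least 5 CPM with a symbol, those most like MYC over the 6 libraries were C22orf39, LMF1 and NEU4 (Pearson r of log2 CPM 0.998, 0.996 and 0.995), and those most like MXD4 were EEF1A2, RBM15B and KLHL24 (0.999 each). High values of r are frequent in these libraries: 1718 of 10878 genes (15.8%) had an r over 0.9 with MYC and 2311 (21.2%) with MXD4. The 6 points share 2 groups and the same libraries, and these likenesses are descriptions.

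Most listed targets of MYC fell while MYC itself rose. Of 63 genes commonly listed as activated by MYC, mostly of the nucleolus and ribosome, 62 were tested (IPO4 was not): 47 fell, 1 rose and 14 did not pass. That is 75.8% lower against 30.1% of all tested genes, with a median log2 fold change of -0.37 beside 0.01 for all. Their summed level went from 16100 to 17660 CPM in the control libraries to 12170 to 12940 CPM. Among those with the smallest p, PLK1, a mitotic kinase, went from 193 ± 8 to 63.2 ± 1.6 CPM (log2 fold change -1.61). MCM5 and MCM4, subunits of the replicative helicase, went from 245 ± 6 to 93.2 ± 6.2 CPM (-1.39) and from 500 ± 5 to 204 ± 8 CPM (-1.30). Chosen after their values were seen, NCL (nucleolin) had a log2 fold change of -0.67, FBL (fibrillarin) -0.77 and NPM1 -0.36, all called, and ODC1, a polyamine synthesis enzyme, -0.01, which was not. The 1 gene that rose, NOLC1, a nucleolar phosphoprotein, went from 281 ± 8 to 541 ± 26 CPM (0.95). Without control siRNA replicate 1 TFB2M was called higher too.

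Of 12 genes commonly listed as repressed by MYC, 7 fell, 2 rose and 3 did not pass. That is 58.3% lower and 16.7% higher against 30.1% and 30.0% of all tested genes, with a median log2 fold change of -0.25, and their summed level was 3146 to 3482 CPM in the control libraries and 2480 to 2781 CPM after AHR siRNA. With libraries scaled by totals alone 4 were lower, and of all 14900 tested genes 3205, against 4479 in the main fit. CDKN1C, which encodes the cell cycle inhibitor p57, rose from 16.0 ± 0.8 to 45.1 ± 2.3 CPM (log2 fold change 1.498), whereas CDKN1A, which encodes p21, fell from 38.5 ± 3.1 to 14.9 ± 0.8 CPM (-1.37). GADD45B, a stress-induced gene, fell from 29.3 ± 1.0 to 16.7 ± 2.1 CPM (-0.81). CDKN2B, the other gene that rose, is named because the count is small; it did not pass without control siRNA replicate 3.

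**Figure D4:**
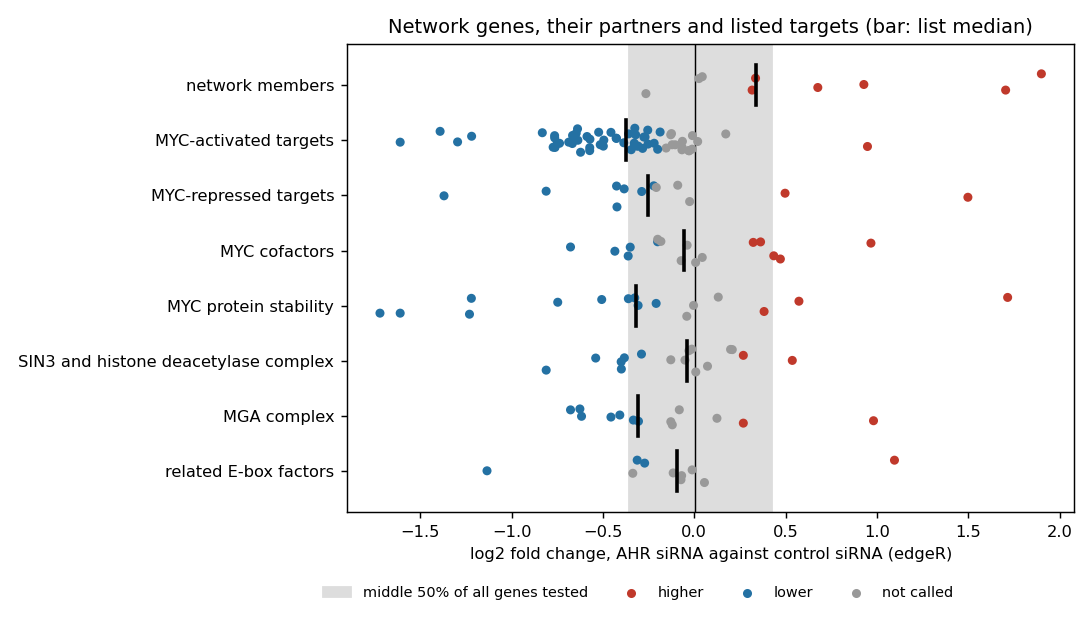
Log2 fold changes of the genes of each list (points: red higher, blue lower, grey not called), with the list median as a black bar and the middle 50% of all tested genes as the grey band. Of the 62 MYC-activated targets 47 are called lower, while 6 of the 9 network genes are called higher.

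Among 10 other E-box factors 3 were lower, 1 higher and 6 not called (median -0.09), and 30% lower is close to the 30.1% of all tested genes, while 10% higher compares with 30.0%. MLXIPL, the glucose-responsive ChREBP, rose from 16.1 ± 2.1 to 34.5 ± 5.5 CPM (log2 fold change 1.10). Its partner MLX, which also pairs with MXD proteins, fell from 89.4 ± 3.7 to 72.0 ± 4.3 CPM (-0.31) and TFE3 from 73.9 ± 2.2 to 61.2 ± 2.1 CPM (-0.27). MYCN, another MYC gene named after its values were seen, had 2.13 ± 0.05 CPM in control and fell to 0.956 ± 0.294 CPM (-1.13).

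The SIN3 and histone deacetylase complex that MXD proteins recruit had 6 of 16 subunits lower and 2 higher (median -0.04), or 37.5% and 12.5% against 30.1% and 30.0% of all tested genes. The histone-binding subunit RBBP4 fell from 159 ± 5 to 90.4 ± 2.6 CPM (log2 fold change -0.81) and RBBP7 from 206 ± 10 to 158 ± 5 CPM (-0.38), while SUDS3 rose from 58.2 ± 3.2 to 84.5 ± 2.2 CPM (0.54). SIN3A, the scaffold, was also picked after its values were seen and had 151 ± 9 and 149 ± 11 CPM, a log2 fold change of -0.01. With libraries scaled by totals alone the counts were 3 lower and 5 higher. That scaling also shifted all 14900 tested genes, to 3205 lower and 5885 higher, from 4479 and 4474 in the main fit.

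Among 16 MYC cofactors 5 were lower, 5 higher and 6 not called (median -0.06), or 31.2% in each direction, close to the 30.1% and 30.0% of all tested genes. CDK9, the kinase that releases paused polymerase, rose from 69.3 ± 3.3 to 136 ± 5 CPM (log2 fold change 0.97). WDR5, which anchors MYC on chromatin, fell from 146 ± 8 to 91.1 ± 5.0 CPM (-0.68). ZBTB17, or MIZ1, through which MYC represses genes, rose from 46.7 ± 1.8 to 63.2 ± 3.3 CPM (0.44). Without control siRNA replicate 1 the lower count was 8.

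Genes that act on MYC protein, which RNA counts do not measure, included 10 of 16 lower and 3 higher (median -0.32). That is 62.5% and 18.8% against 30.1% and 30.0% of all tested genes. The list holds genes that stabilise MYC protein and genes that destabilise it, so these counts give no direction for the protein. PLK1 is given above. CIP2A, an inhibitor of the phosphatase that destabilises MYC, fell from 68.6 ± 2.2 to 20.9 ± 2.9 CPM (log2 fold change -1.72), and AURKA, a kinase that stabilises MYC-family proteins, from 155 ± 6 to 65.9 ± 3.0 CPM (-1.23). Chosen after their values were seen, the MYC ubiquitin ligase FBXW7 had a log2 fold change of -0.04 (edgeR adjusted p = 0.711) and GSK3B, the kinase that marks MYC for it, rose by 0.57.

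The other subunits of the MGA complex, PRC1.6, had 7 of 13 lower and 2 higher (median -0.31), or 53.8% and 15.4% against 30.1% and 30.0% of all tested genes. With libraries scaled by totals alone 4 were lower, and of all 14900 tested genes 3205, against 4479 in the main fit. TFDP2 rose from 41.4 ± 1.7 to 81.7 ± 2.8 CPM (log2 fold change 0.98), and its relative TFDP1 fell from 252 ± 7 to 163 ± 2 CPM (-0.63). This list shares WDR5 with the cofactors, CBX3 with the MYC-activated targets, and HDAC1 and HDAC2 with the SIN3 list. Named for how few alternatives kept their lower calls, PCGF6 kept it in 9 of 17 and YAF2 in 8. Of 12 germline genes that the MGA complex silences, 5 passed the filter on low counts. Of these 5, 2 were higher and 1 lower, or 40% and 20% against 30.0% and 30.1% of all tested genes. STAG3, a meiotic cohesin, went from 8.78 ± 2.29 to 14.02 ± 2.01 CPM and STK31 from 0.679 ± 0.255 to 1.26 ± 0.24 CPM, both higher, and MEIOC fell from 2.36 ± 0.25 to 1.33 ± 0.20 CPM. STK31 rests on 5 to 20 counts per library and kept its call in 9 of 17 alternatives. It was not called by the DESeq2 Wald test, nor without control siRNA replicate 2 or 3 or AHR siRNA replicate 2 or 3, and MEIOC was not called without AHR siRNA replicate 3. The remaining 2 tested genes did not pass.

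A set of short words in 3′ UTRs, GACTTAA and CACAACA, was picked by an earlier analysis on these fold changes. GACTTAA occurs in the 3′ UTRs of MXI1 and MGA, and neither word in those of the other 7 network genes. Of the 2451 tested genes with either word 44.1% were lower and 24.8% higher. Among the 9945 with an annotated 3′ UTR and neither word it was 31.3% and 31.7%. Since the words were picked on these same fold changes, this difference is no independent support. The part of the words in the results was not tested.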

How the data were processed

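RNA of DLD-1 cells was sequenced after control siRNA or AHR siRNA, with 3 libraries in each group, and the sample titles gave group and replicate number. The authors deposited whole-number counts per versioned Ensembl gene ID. The submitters' processing notes name TopHat2 2.0.11, TopHat, HTSeq, hg19 and GRCh37 without saying what each was for. Many IDs belong to GRCh38 annotations, so the build is uncertain. Strandedness and the treatment of multiply mapping reads were not given in the sources used.

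Counts were tested with edgeR 4.0.16 in R 4.3.3 (filterByExpr, TMM, quasi-likelihood test, Benjamini-Hochberg adjustment over 14900 genes). CPM are relative to each library's sum of counts over tested genes times its TMM factor. The SE is the size of the log2 fold change divided by the square root of F. The tests were checked on simulated data. The network genes and the gene lists were chosen with earlier results of these data known. Named were all network genes, AHR, and up to 3 called genes per list with the smallest p. Genes outside that rule are said to be. The RefSeq promoter table and GENCODE 29 gave sequences, exon lengths and overlaps. Alternatives were other scaling and filters, DESeq2 1.42.0, limma 3.58.1, a replicate block, stricter thresholds and each library left out.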

Additional observations from a re-analysis of the deposited data

How the results depend on the processing

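Of 153 recomputed log2 fold changes of network genes 145 kept their direction and their side of the threshold, 3 lost the call, 2 gained it and 3 changed sign. Of 306 recomputed list counts 265 stayed within 1.5 times. The cause of a change was not tested, except that the stricter thresholds call fewer genes by construction. Of all 14900 tested genes, upper-quartile factors gave 3781 lower and 5223 higher, and library totals alone 3205 and 5885. The DESeq2 Wald test gave 4160 and 3917. All-gene counts are not given here for the stricter thresholds, other filters or left-out libraries. The list counts at those settings therefore have no background beside them. Upper-quartile factors gave 4 SIN3 complex genes higher and 2 MYC-activated targets higher. MYC-activated targets called lower were 47 in the main fit and 35 with library totals alone. They were 41 with upper-quartile factors and 41 at an adjusted p under 0.01. Picked for how few alternatives kept their lower calls, PPAN kept it in 5 of 17, HSPE1 in 8 and PPRC1 in 9. Library totals alone, which moved the median of all genes by 0.15 on the log2 scale and made 64.7% of called genes higher, gave 2 E-box factors higher, 3 SIN3 genes lower and 5 higher, 3 cofactors lower, 2 MYC-activated targets higher, 4 MYC-repressed targets lower and 4 MGA complex genes lower. With no filter the germline genes counted 2 lower and 1 higher, and the DESeq2 Wald test gave 1 higher. An adjusted p under 0.01 left 1 MYC-repressed target higher and 0 germline genes lower and 1 higher. With glmTreat at a minimum fold of 1.5, MYC (log2 fold change 0.3355) was not called and 3 network genes were higher; 0 E-box factors were lower, 1 SIN3 gene lower and 0 higher, 0 cofactors lower and 1 higher, 5 stability genes lower and 1 higher, 9 MYC-activated targets lower, 2 MYC-repressed targets lower and 1 higher, 0 MGA complex genes lower and 1 higher, and 0 germline genes either way. MYC against the antagonists summed per kb differed by -0.503 on the log2 scale.

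Leaving out single libraries gave a log2 fold change of -0.013 to 0.038 for MAX and of -0.081 to 0.134 for MGA (-0.05 without control siRNA replicate 1). Network genes called lower were 0 to 1 (MXD3 without AHR siRNA replicate 2), cofactors lower 4 to 8, MYC-activated targets higher 1 to 2, MYC-repressed targets higher 1 to 2, and germline genes 1 to 2 lower and 1 to 2 higher.

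The labels do not say whether the replicate numbers mark pairs, and the values do not settle it. Deviations from the group means of same-numbered libraries correlated at 0.171, -0.04 and 0.137. Of the 6 libraries, 3 correlated best with the library of their own number in the other group. With the replicate number as a block, MYC-activated targets called higher were 2 and 9598 genes were called in all, against 8953 without it.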
